A study of Homo sapiens with 8 samples.

Results

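IL32, ICAM1 and 8 further genes of the NF-kB pathway (NFKB1, NFKB2, RELA, RELB, NFKBIA, TNFAIP3, TNFAIP2 and BIRC3) were followed across 8 single-cell RNA libraries of SUM159, an established triple-negative breast cancer line of human origin. These 10 genes are among 18955 in the count table. IL32 and ICAM1 were chosen by their low level in the libraries with the BET bromodomain inhibitor JQ1, so their JQ1 values are given as a description with no test, while the other 8 were named as NF-kB subunits, feedback genes or targets, with earlier results of these data known. The cells carried a lentiviral DNA barcode library and, apart from 1 pre-treatment library, had been passaged up to 18 times. One experiment gave a DMSO library, a library with 0.6 nM paclitaxel (a microtubule drug), a library with 100 nM JQ1 (here JQ1-A) and a library with both drugs. A second experiment gave a library with 160 nM palbociclib (a CDK4/6 inhibitor), a second 100 nM JQ1 library (JQ1-B) and a library with JQ1 and palbociclib, and no vehicle library of that experiment is among the 8. Each treated library pooled cells of parallel cultures (1 of those with JQ1 and palbociclib had died out), so the cultures within it cannot be told apart, and only JQ1 alone has more than 1 library.

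NF-kB is a family of dimeric transcription factors that IkB inhibitors hold in the cytoplasm until ligands such as TNF or IL-1 trigger their release. Once in the nucleus, the dimers bind kB sites and raise cytokines, adhesion molecules, survival genes and their own inhibitors, so that NFKBIA and TNFAIP3 are both targets and brakes of the pathway. BET proteins read acetylated histones, and JQ1 displaces them from chromatin. IL32 encodes a proinflammatory cytokine and ICAM1 the adhesion molecule to which leukocyte integrins bind.

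The 8 libraries held 5738 cells and between 10621159 (DMSO) and 24240835 (JQ1 with palbociclib) unique molecular identifiers (UMIs, each standing for 1 captured transcript). Levels are given as CPM, the UMIs of a gene per 1000000 UMIs of the summed cells of a library, from 3' tags, which do not grow with transcript length. Median mitochondrial shares per library ran from 3.72% to 3.96% in the pre-treatment, DMSO and paclitaxel libraries and from 4.69% to 7.18% in the other 5, and their part in the results was not tested. Only 13 droplet barcodes, which name the cells, occurred in more than 1 library, in 26 cells. The lentiviral barcodes were not analysed here. Of the labelled line's markers, KRT8, KRT18 and VIM were at 275 to 4502 CPM, whereas KRT19 and EPCAM were at most at 0.165 and 0.565 CPM and CDH1 was not analysed here. ESR1 and PGR were at 0.14 CPM or less, and ERBB2 was at 5.32 to 12 CPM. The 3 listed immune markers reached 1.21 CPM in sum and were lower with JQ1 (0 to 0.493 CPM) than without it (0.605 to 1.21 CPM), with PTPRC at 0 in 3 of the 8 libraries.

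Promoter sequences of 9 of the 10 members matched RefSeq's promoter table by symbol (GRCh38.p14, 250 bases before to 50 after each start), and each window was found once in GRCh37, the build of the deposited counts. Both strands were searched for the 10-base kB consensus and for GGAANTTCC, which reads the same on both strands and overlaps the consensus matches of NFKB1 and NFKBIA. A match stood in 7 of the 9 matched members (77.8%), in 41.0% of the 78 matched pathway genes and in 13.8% of all 27305 symbols. Among windows of the same length, 11.3% held the consensus and 0.965% held GGAANTTCC. The stretches around the matches are shown 5′ to 3′ on the gene's strand with matched bases in capitals, because these genes include both those that were low with JQ1 and those that were not.
IL32 (chr16:3115280-3115340, plus strand): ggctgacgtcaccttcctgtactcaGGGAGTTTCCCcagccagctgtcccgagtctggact
ICAM1 (chr19:10381585-10381643, plus strand): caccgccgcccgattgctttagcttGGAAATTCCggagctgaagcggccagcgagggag
NFKB1 (chr4:103422442-103422501, plus strand): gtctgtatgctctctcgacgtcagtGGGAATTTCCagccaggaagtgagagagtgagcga
NFKB2 (chr10:104154203-104154291, plus strand): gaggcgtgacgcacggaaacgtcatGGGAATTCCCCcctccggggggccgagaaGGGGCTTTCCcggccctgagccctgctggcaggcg
NFKBIA (chr14:35874002-35874061, minus strand): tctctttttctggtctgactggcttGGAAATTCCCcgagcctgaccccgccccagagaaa
TNFAIP3 (chr6:138188304-138188375, plus strand): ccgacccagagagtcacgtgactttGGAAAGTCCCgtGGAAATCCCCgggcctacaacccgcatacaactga
BIRC3 (chr11:102187991-102188114, plus strand): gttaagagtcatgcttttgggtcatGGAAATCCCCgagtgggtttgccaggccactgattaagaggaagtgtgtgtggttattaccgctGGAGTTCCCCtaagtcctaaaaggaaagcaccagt
The matches began 99 bases before the RefSeq start for IL32 and 186 bases before it for ICAM1, and the ICAM1 window held GGAANTTCC without the consensus. The gene spans given below are from GENCODE, and the IL32 match lies inside its GENCODE span. Neither motif was in the windows of RELA and TNFAIP2. Several members have more than 1 annotated start, and 1 start is shown for each. For NFKB2, 1 further start also had matches, which began 176 and 21 bases before it, and the remaining start of NFKB2 and the second starts of NFKB1 and IL32 had none. A letter match is a description and does not show that a factor binds there.

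IL32 was abundant in every library without JQ1. Its level was 211 CPM in pre-treatment cells, 132 CPM with DMSO, 119 CPM with paclitaxel and 138 CPM with palbociclib. With JQ1 it was 2.97 CPM in JQ1-A, 4.88 CPM in JQ1-B, 1.95 CPM with paclitaxel added and 1.65 CPM with palbociclib added. The lowest library without JQ1 was thus far above the highest library with it, and the mean was 150.0 ± 41.4 CPM against 2.86 ± 1.46 CPM (SD, n = 4 each). Within matched libraries, IL32 was 44.6-fold lower in JQ1-A than in DMSO (95% counting interval 33.4 to 60.7), 60.8-fold lower with JQ1 and paclitaxel than with paclitaxel (42.0 to 91.7) and 83.7-fold lower with JQ1 and palbociclib than with palbociclib (61.3 to 118). These intervals cover counting error only. Among the libraries without JQ1, the intervals of palbociclib and DMSO met, and pre-treatment cells stood above both. Among those with JQ1, JQ1-B stood above the rest, and the intervals of JQ1-A and of both combinations met their neighbours' in order.

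ICAM1 was a low-abundance transcript that was high in the palbociclib library and nearly gone with JQ1. It was at 27.2 CPM in the palbociclib library, 12.1 CPM in pre-treatment cells, 9.13 CPM with DMSO and 4.46 CPM with paclitaxel. The JQ1 libraries held 10 UMIs (0.618 CPM, JQ1-A), 7 UMIs (0.345 CPM, JQ1-B), 12 UMIs (0.837 CPM, with paclitaxel) and 15 UMIs (0.619 CPM, with palbociclib). No JQ1 library reached the level of any library without JQ1, and counting intervals did not separate one JQ1 library from its neighbour in the order. ICAM1 was 2.98-fold higher with palbociclib than with DMSO (2.39 to 3.75), yet 44-fold lower with JQ1 and palbociclib than with palbociclib alone (26.4 to 79.3). The palbociclib and DMSO libraries come from different experiments, and the intervals cover counting error only, so drug and experiment cannot be told apart in their ratio.

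**Figure D1:**
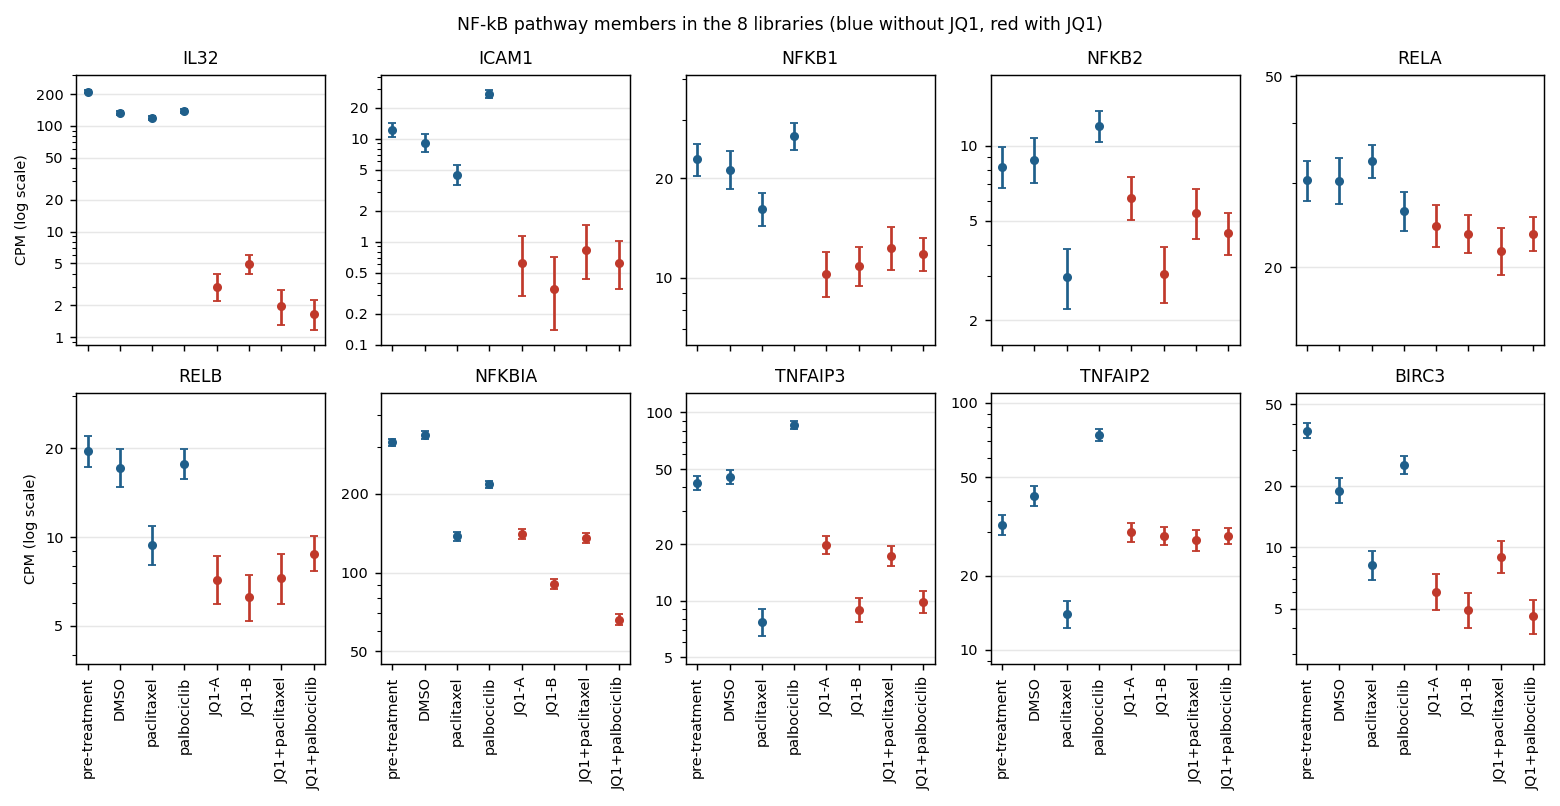
Levels of the 10 members in the 8 libraries, in CPM on a log axis whose range differs between panels; points are libraries (blue without JQ1, red with JQ1) and bars are 95% counting intervals. IL32 and ICAM1 separate completely by JQ1, NFKB1 separates with a smaller gap, and TNFAIP3 and TNFAIP2 are lowest in the paclitaxel library and highest in the palbociclib library.

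For the other members, the effect of each drug was estimated over all 8 libraries with edgeR's quasi-likelihood test, TMM scaling and additive terms for the 3 drugs, and p-values were adjusted over all 9288 tested genes. All 10 members passed the filter on low counts. Of all tested genes 37.6% were called for JQ1 and 19.7% were called lower, so that a call by itself is common. TMM scaling centers the median tested gene near 0, whereas the mean CPM of the median gene had a log2 ratio of -0.21 for JQ1 against no JQ1, and the log2 fold changes below are relative to the TMM scale. The libraries compared are mostly different treatments, and the spread behind the p-values has 4 residual degrees of freedom. Of these, 2 come from the pre-treatment library against DMSO and JQ1-A against JQ1-B. The rest come from any departure from additive effects of JQ1 and a partner drug. Where the drugs do not add up, which is tested below, the SE thus includes that departure.

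Of the genes of the NF-kB subunits, NFKB1 and RELB were called lower with JQ1 and RELA and NFKB2 were not, and the difference between these genes was not tested. NFKB1 encodes p105, which is processed to the p50 subunit, and was at 22.8, 21.3, 16.2 and 26.9 CPM in the pre-treatment, DMSO, paclitaxel and palbociclib libraries. It was at 10.3 CPM in JQ1-A, 10.8 CPM in JQ1-B, 12.3 CPM with JQ1 and paclitaxel and 11.8 CPM with JQ1 and palbociclib. All 4 JQ1 libraries lay below all 4 others, which held for 12.8% of all tested genes on the TMM scale, and NFKB1 fell by 0.74 ± 0.16 on the log2 scale (± SE, edgeR, adjusted p = 0.00987). RELB, a subunit of the non-canonical arm, was at 19.5, 17.1, 9.41 and 17.7 CPM without JQ1 in the same order and at 7.17, 6.26, 7.25 and 8.79 CPM in JQ1-A, JQ1-B and the combinations with paclitaxel and with palbociclib. It fell by 0.89 ± 0.20 (edgeR, adjusted p = 0.0104), with the paclitaxel library close to the JQ1 libraries and overlapping them on the TMM scale.

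RELA encodes p65, the main activating subunit, and ran from 26.2 to 33.3 CPM without JQ1 and from 21.6 to 24.4 CPM with it. On the TMM scale its groups overlapped, and its log2 fold change was -0.17 ± 0.10 (edgeR, adjusted p = 0.195). NFKB2 encodes p100, the precursor of p52, and was at 8.23, 8.76, 2.97 and 12 CPM in the pre-treatment, DMSO, paclitaxel and palbociclib libraries. With JQ1 it was at 6.18, 3.05, 5.37 and 4.46 CPM in JQ1-A, JQ1-B and the combinations with paclitaxel and palbociclib. The paclitaxel library was thus the lowest of the 8, and the JQ1 term was -0.45 ± 0.39 (edgeR, adjusted p = 0.380), which became -0.92 (adjusted p = 0.0342) without that library and turned to 0.43 (adjusted p = 0.321) within the paclitaxel experiment alone.

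Of the feedback genes among the members, NFKBIA passed the JQ1 test and TNFAIP3 did not, and the difference between them was not tested. NFKBIA encodes the inhibitor IkB alpha and was the most abundant member. It was at 314 CPM in pre-treatment cells, 334 CPM with DMSO, 137 CPM with paclitaxel and 217 CPM with palbociclib. The JQ1 libraries were at 141 CPM (JQ1-A), 90.5 CPM (JQ1-B), 135 CPM (with paclitaxel) and 66.1 CPM (with palbociclib), so that paclitaxel alone lay at the level of JQ1-A. NFKBIA fell by 0.99 ± 0.29 with JQ1 (edgeR, adjusted p = 0.0295), and the call was lost when any 1 library other than paclitaxel or JQ1 with paclitaxel was left out (adjusted p = 0.0684 to 0.0904). TNFAIP3 encodes A20, an enzyme that edits ubiquitin chains and ends NF-kB signaling. It was at 42.3 CPM in pre-treatment cells, 45.5 CPM with DMSO, 7.70 CPM with paclitaxel and 85.8 CPM with palbociclib, and at 19.8, 8.92, 17.3 and 9.86 CPM in JQ1-A, JQ1-B and the combinations with paclitaxel and palbociclib. Its extremes were the palbociclib and paclitaxel libraries, 11.1-fold apart. The JQ1 term of -1.20 ± 0.63 did not pass (edgeR, adjusted p = 0.162) and was -1.95 (adjusted p = 0.00768) without the paclitaxel library. It was -0.51 (adjusted p = 0.459) without the palbociclib library, -0.55 (adjusted p = 0.430) without its combination with JQ1, and 0.22 (adjusted p = 0.679) within the paclitaxel experiment alone.

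Of the 2 further targets, BIRC3 fell with JQ1 and TNFAIP2 did not pass the test. BIRC3 encodes cIAP2, a ubiquitin ligase of the TNF receptor complex, and was at 37.2, 18.9, 8.20 and 25.3 CPM in the pre-treatment, DMSO, paclitaxel and palbociclib libraries. With JQ1 it was at 6.06 CPM (JQ1-A), 4.93 CPM (JQ1-B), 8.99 CPM (with paclitaxel) and 4.58 CPM (with palbociclib). It fell by 1.62 ± 0.46 (edgeR, adjusted p = 0.0257), with an overlap between the paclitaxel library and the combination, and the call was lost without any 1 library other than those with paclitaxel (adjusted p = 0.0515 to 0.0903). TNFAIP2, a TNF-induced gene linked to membrane protrusions, was at 27.8 to 30.0 CPM in all 4 JQ1 libraries. Without JQ1 it ranged from 14.0 CPM with paclitaxel over 32.0 CPM in pre-treatment cells and 41.9 CPM with DMSO to 73.9 CPM with palbociclib. Its JQ1 term was -0.08 ± 0.34 (edgeR, adjusted p = 0.862), and its coefficient of variation between libraries was 3.14% with JQ1 and 62.2% without. The calls for NFKB1, RELB, NFKBIA and BIRC3 were each lost within the paclitaxel experiment alone (edgeR, adjusted p = 0.127 to 0.286) and with 3 matched pairs (0.107 to 0.181), and those of NFKBIA and BIRC3 also with experiment as a term (0.0897 for both). Within the paclitaxel experiment the log2 fold changes were -0.43, -0.53, -0.34 and -0.46 in that order of genes, with 3 matched pairs they were -0.70, -0.70, -0.81 and -1.16, and with experiment as a term NFKBIA was at -0.81 and BIRC3 at -1.42.

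The wider pathway was read from lists of 94 ligands, receptors, adaptors and kinases, subunits, inhibitors and targets that include the 10 members and of which 90 were in the table. Without IL32 and ICAM1, 66 of them were tested for JQ1. Of these, 19 were called lower and 3 higher, or 33.3% against the 37.6% of all tested genes, and their median log2 fold change was -0.26 against -0.0032 for all tested genes. The lists had been drawn up with earlier results of these data known. Of the inhibitors and feedback genes, 11 were tested, all 11 had a negative JQ1 term and 5 were called lower (19.7% of all tested genes were). Besides NFKBIA these included NFKBIE, a further IkB inhibitor, at 10.6 ± 1.31 CPM in the libraries without JQ1 and 4.19 ± 0.51 CPM in those with it (SD, n = 4 each), which fell by 1.15 ± 0.14 (edgeR, adjusted p = 0.00154).

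Of the 23 target genes tested for JQ1, 7 were called lower, where 19.7% of all tested genes were, and none higher. CSF2, which encodes the cytokine GM-CSF, fell from 13.9 ± 4.97 to 2.25 ± 0.77 CPM, a log2 fold change of -2.42 ± 0.28 (edgeR, adjusted p = 0.00121). SOD2, the mitochondrial superoxide dismutase, went from 331 ± 223 to 111 ± 17.2 CPM and fell by 1.16 ± 0.40 (edgeR, adjusted p = 0.0477). IRF1, an interferon-response transcription factor, fell from 31.1 ± 9.18 to 12.7 ± 3.44 CPM (edgeR, adjusted p = 0.0178). Among ligands, TNFSF12, which encodes TWEAK, fell by 1.81 ± 0.21 (edgeR, adjusted p = 0.00121) and IL18 rose by 0.67 ± 0.20 (edgeR, adjusted p = 0.0297). Of 15 adaptors and kinases 5 were called, against 37.6% of all tested genes. Of these 4 were called lower, among them the Toll-like receptor adaptor MYD88 (-0.68 ± 0.12, edgeR, adjusted p = 0.00500), and 1 was called higher, the IkB kinase IKBKB (0.40 ± 0.13, edgeR, adjusted p = 0.0415). Of 9 receptors 1 was called, again against 37.6%, namely TNFRSF11A, which rose by 0.54 ± 0.14 (edgeR, adjusted p = 0.0174).

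Palbociclib and paclitaxel gave no call in the pathway when their effect was taken as the same with and without JQ1. For palbociclib 0 of 68 pathway genes were called by edgeR (0.28% of all tested genes were) and 1 by DESeq2 (515 of 9288 tested genes were). Of the 68, 8 had an unadjusted p under 0.05 (22.1% of all tested genes did). ICAM1 had a palbociclib term of 1.18 ± 0.45 (edgeR, adjusted p = 0.178), which passed without the paclitaxel library (1.25, adjusted p = 0.0444), without its combination with JQ1 (1.25, adjusted p = 0.0434) or without the combination of JQ1 and palbociclib (1.62, adjusted p = 0.0372). Without the palbociclib library itself the term was -0.18 (adjusted p = 0.949). LIF, a cytokine of the IL-6 family, had 1.90 ± 0.64 (edgeR, adjusted p = 0.142). For paclitaxel 0 of 68 were called by edgeR or DESeq2 (0% of all tested genes by edgeR and 9 of 9288 by DESeq2). Of the 68, 4 had an unadjusted p under 0.05 (4.25% of all tested genes did). All 25 target genes had a paclitaxel term below 0, with a median of -0.51 against 0.014 for all tested genes. With 1 library left out, the terms of ICAM1, BIRC3 and TNFAIP2 turned positive (up to 1.31, 0.82 and 0.16), and that of IL32 stayed below 0. None of the 10 members passed for either drug.

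Pair by pair, with 1 library each and no test, several members were low in the paclitaxel library without JQ1. The ratios of paclitaxel, palbociclib and JQ1-A below share the DMSO library. Relative to DMSO, 6 of the 10 members and 22 of 68 pathway genes had a CPM ratio under 0.5 in the paclitaxel library, against 3.34% of all tested genes. TNFAIP3 was 5.90-fold lower (4.88 to 7.18), TNFAIP2 3-fold (2.56 to 3.51), NFKB2 2.95-fold (2.09 to 4.20), NFKBIA 2.43-fold (2.31 to 2.56), BIRC3 2.31-fold (1.86 to 2.87) and ICAM1 2.05-fold lower (1.51 to 2.79). IL32 was only 1.11-fold lower (1.04 to 1.19) and RELA had a ratio of 1.10 (0.957 to 1.26). With JQ1 and paclitaxel against JQ1-A, 0 of the 68 pathway genes had a ratio under 0.5, where 0.431% of all tested genes did, so this count is near the background. In that pair TNFAIP3 had a ratio of 0.874 (0.738 to 1.04), NFKBIA of 0.962 (0.905 to 1.02) and BIRC3 of 1.49 (1.13 to 1.95).

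The 3 matched pairs with and without JQ1 differed in how many members were low. These CPM ratios were not centered on the median tested gene. That gene had a ratio of 0.837 in JQ1-A against DMSO. It had 0.970 in JQ1 with palbociclib against palbociclib and 0.821 in JQ1 with paclitaxel against paclitaxel. The part of this shift in the counts below was not tested, and several members lay close to 0.5. JQ1-A against DMSO brought 7 members and 15 of 68 pathway genes under a ratio of 0.5 (8.86% of all tested genes), and JQ1 with palbociclib against palbociclib brought 9 members, all but RELA, and 27 pathway genes under it (4.67% of all tested genes). TNFAIP3 was 8.71-fold lower (7.59 to 10.0) and BIRC3 5.51-fold lower (4.46 to 6.86) in the latter pair. JQ1 with paclitaxel against paclitaxel brought only IL32 and ICAM1 under it among the members, and 14 pathway genes (14.2% of all tested genes). In that pair TNFAIP3 was 2.25-fold higher (1.82 to 2.78), TNFAIP2 had a ratio of 1.99 (1.69 to 2.33) and NFKB2 of 1.81 (1.26 to 2.61). IL32 and ICAM1 were chosen for being low with JQ1. Without them, 5 of 8 members and 13 of 66 pathway genes were under 0.5 in JQ1-A against DMSO, 7 of 8 and 25 of 66 in the palbociclib pair, and 0 of 8 and 12 of 66 in the paclitaxel pair. The 2 libraries of JQ1 alone also differed, as JQ1-A against JQ1-B put 4 of 68 pathway genes over a ratio of 2 (0.334% of all tested genes), among them the members NFKB2 (2.02, 1.46 to 2.82) and TNFAIP3 (2.22, 1.84 to 2.68). Palbociclib against DMSO, libraries of different experiments, put 5 pathway genes over a ratio of 2, ICAM1 as the only member among them (2.45% of all tested genes).

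The difference between paclitaxel's effect with and without JQ1 was tested as an interaction over all 8 libraries, with 2 residual degrees of freedom. Paclitaxel and its combination with JQ1 have 1 library each, so the spread comes from the pre-treatment library against DMSO and JQ1-A against JQ1-B, and the lone libraries are assumed to vary like these. In the JQ1 by paclitaxel term, 7 of 68 pathway genes were called by edgeR, against 0.388% of all tested genes. Of the 7, 6 were positive, namely the chemokines IL8, CXCL1 and CCL20, the cytokine IL6, the atypical IkB protein NFKBIZ and the AP-1 subunit JUNB. None of the 10 members was called, but 8 had an unadjusted p under 0.05 (17% of all tested genes did), all with a positive term. TNFAIP3 had a term of 2.83 ± 0.52 (edgeR, adjusted p = 0.0592), TNFAIP2 of 1.36 ± 0.26 (adjusted p = 0.0622), BIRC3 of 2.55 ± 0.52 (adjusted p = 0.0678) and NFKBIA of 1.5 ± 0.32 (adjusted p = 0.0785). The 2 others were IL32 at -0.45 ± 0.57 (edgeR, adjusted p = 0.719) and RELA at -0.24 ± 0.21 (adjusted p = 0.597). The number of pathway calls depended on single libraries. It rose without the pre-treatment library or without DMSO and fell without JQ1-B, and the number among all tested genes moved the same way.

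**Figure D2:**
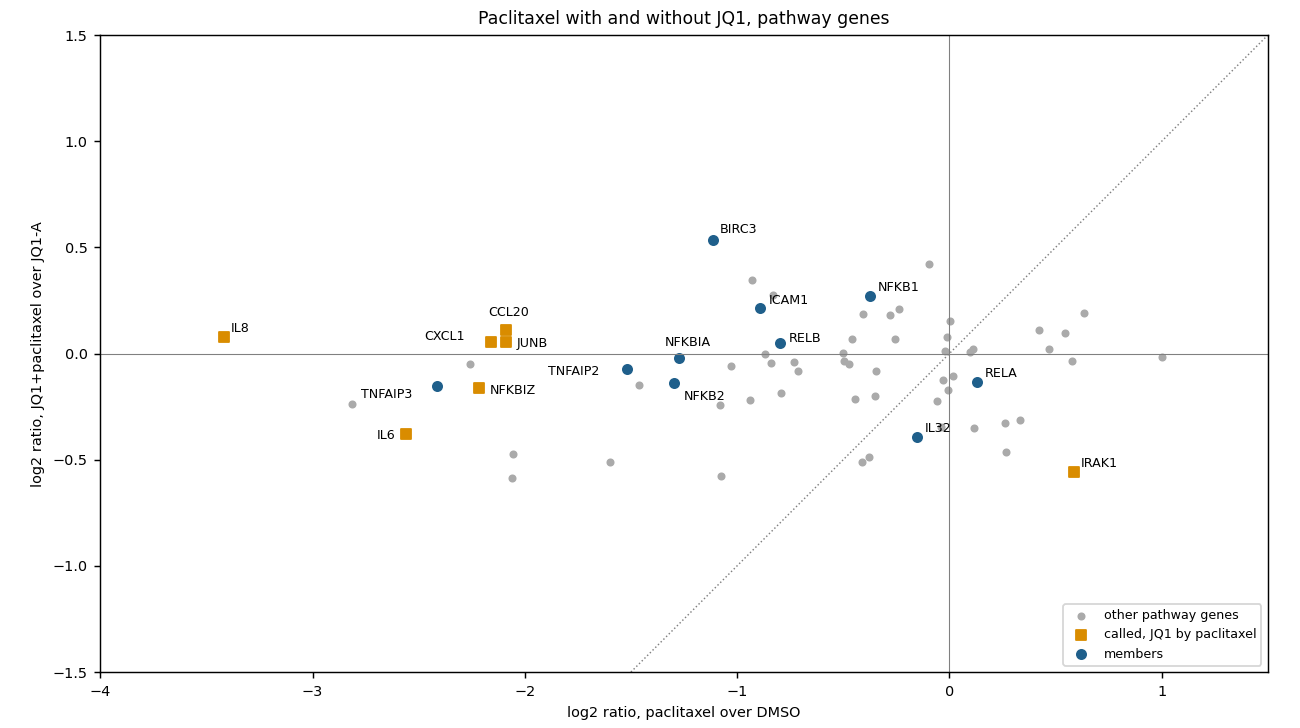
Log2 ratios of CPM + 1 for the 68 tested pathway genes, centered on the median tested gene, for paclitaxel over DMSO (x axis) and for JQ1 with paclitaxel over JQ1-A (y axis); the dotted line marks equal ratios. The medians of the members are -1 on the x axis and -0.05 on the y axis, and IL32 and RELA are the members near 0 on x.

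In the JQ1 by palbociclib term no pathway gene was called by edgeR (0.0108% of all tested genes were) and 3 by DESeq2 (34 of all tested genes were). Of the 10 members 2, TNFAIP3 and TNFAIP2, had an unadjusted p under 0.05 (17% of all tested genes did). TNFAIP3 had a term of -1.68 ± 0.49 (edgeR, adjusted p = 0.162) and TNFAIP2 of -1.21 ± 0.24 (adjusted p = 0.113). The number of pathway calls rose without the pre-treatment library or without DMSO, and the number among all tested genes rose as well. With 1 library left out, the term ran from -2.17 to -0.99 for TNFAIP3 and from -1.41 to -1.03 for TNFAIP2. Of the 68 pathway genes, 54 had a negative term, with a median of -0.30 against -0.01 for all tested genes.

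At the level of single cells, IL32 was expressed in most cells without JQ1 and in few with it. An IL32 UMI was present in 93.7% of pre-treatment cells, 81.7% of DMSO cells, 81.5% of paclitaxel cells and 85.4% of palbociclib cells. In the JQ1 libraries the share was 4.02% (28 of 697 cells, JQ1-A), 5.76% (50 of 868, JQ1-B), 3.27% (21 of 643, with paclitaxel) and 2.54% (26 of 1024, with palbociclib). All cells were of 1 line, so no cell type lacking IL32 was there to set the level of free RNA. None of the IL32 UMIs in JQ1 libraries lay in a cell whose droplet barcode occurred in another library. To compare shares at equal depth, 5487 of the 5575 cells that passed the study's filter were thinned to 10000 UMIs and 88 shallower cells were left out. The IL32 shares were then 60.8% to 82.3% without JQ1 and 0.990% to 2.75% with it.

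**Figure D3:**
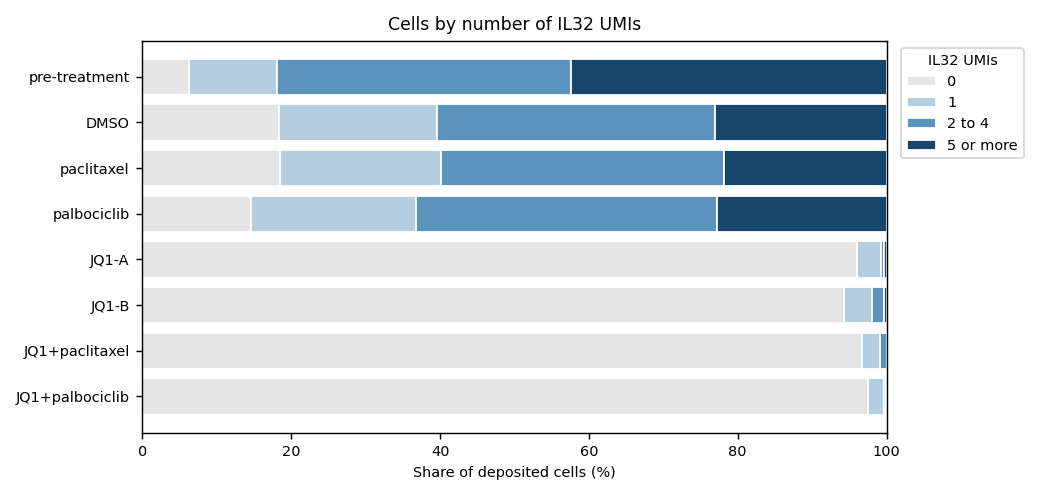
Share of deposited cells (x axis, percent) with 0, 1, 2 to 4 and 5 or more IL32 UMIs in each of the 8 libraries. In the 4 libraries without JQ1 at most 18.5% of cells had no IL32 UMI, and in the 4 with JQ1 at least 94.2% had none.

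The few JQ1 cells with IL32 were uneven in depth and content. Over the 4 JQ1 libraries, 3107 cells had 0 IL32 UMIs, 93 had 1 and 32 had 2 or more, and these 32 held 122 of the 215 IL32 UMIs, 66 of them in 8 cells. Their median depth was 32557 UMIs against 21539 in cells with none, and 11 of the 32 were among the deepest 5% of their library. S100A2 was at 62.5 CPM in the summed 32 cells (95% counting interval 48.8 to 78.8) and at 18.3 CPM (17.3 to 19.3) in cells without IL32, but 57 of its 71 UMIs lay in those 8 cells. In the other 24 of the 32 it was at 19.0 CPM (10.4 to 31.9), and in the 93 cells with 1 IL32 UMI at 19.9 CPM (14.7 to 26.4). KRT75 was at 50.2 CPM (38.0 to 65.0) against 10.6 (9.90 to 11.4). PSME2, a subunit of the proteasome activator, was at 218 (192 to 247) against 104 (102 to 106), and ICAM1 was at 0.880 (0.0223 to 4.91), from 1 UMI. PTPRC had no UMI in the 32 cells. SCG5, SPANXC and POMP were higher in the 32 cells as well. TNNT1 was at 10.6 CPM (5.46 to 18.5) against 5.66 (5.12 to 6.24), and these intervals met. The cells were picked by their IL32. S100A2, KRT75, PSME2, SCG5, SPANXC, POMP and TNNT1 were picked by their likeness to IL32 given below. These values thus have no test, and the part of depth in them was not tested.

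After thinning, ICAM1 had a UMI in 22.2% of palbociclib cells, 10.8% of pre-treatment cells, 7.64% of DMSO cells and 3.55% of paclitaxel cells, and in 0.358% to 0.825% of cells with JQ1. NFKBIA was found in 63.7% to 90.3% of cells without JQ1 and in 43.3% to 62.4% with it. TNFAIP2 reached 47.3% of palbociclib cells and 13.7% of paclitaxel cells, against 22.8% to 24.3% in the 4 JQ1 libraries. RELA was the most even, at 23.1% to 29.1% without JQ1 and 19.2% to 21.7% with it.

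The spread across cells was read from the ratio of the variance to the mean of thinned UMIs, which is 1 for pure counting and can grow with abundance. Over the 8 libraries it was 1.32 to 2.26 for NFKBIA, and 1.74 to 2.26 in the 4 without JQ1. The median per library was 1.14 to 1.21 over the genes averaging 0.5 UMI or more per cell. The same ratio was 0.901 to 1.07 for RELA and 0.922 to 1.21 for NFKB1 over the 8 libraries, and thus close to counting noise. TNFAIP2 had 1.23 to 1.72 and BIRC3 1.14 to 1.70. The order of NFKBIA and BIRC3 depended on the setting, as at 5000 UMIs BIRC3 had 1.45 and 1.47 in the paclitaxel and palbociclib libraries and NFKBIA 1.32 and 1.28. For IL32 it was 1.30 to 1.61 without JQ1 and 1.28 to 1.91 with it, where the mean was far lower.

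Cells with the most NFKBIA also held the most of several feedback and target transcripts, in libraries with and without JQ1. Cells passing the filter were ranked by NFKBIA CPM within each library, a choice made after the data were seen, cut into 4 equal groups, and the highest group was set against the lowest. TNFAIP3 was 2.14-fold to 2.92-fold higher in the highest group in the 4 libraries without JQ1 and 6.89-fold to 12.7-fold higher in the 4 with JQ1. IL8, which encodes the chemokine CXCL8, was 2.04-fold to 11-fold higher, CXCL2, a related neutrophil chemokine, 2.12-fold to 9.30-fold and NFKB2 1.53-fold to 4.03-fold higher over the 8 libraries. Other targets moved less in some or all libraries, with ratios of 1.03 to 2.02 for TNFAIP2, 1.02 to 5.16 for BIRC3 and 1.09 to 1.48 for SOD2. RELA had ratios of 0.763 to 1.27 and RELB of 0.725 to 1.35, on both sides of 1. IL32 had ratios of 1.04 to 1.31 in the libraries without JQ1. With JQ1 it had few UMIs, and its ratios were 1.35 (0.632 to 2.97) in JQ1-A, 4.38 (1.91 to 11.7) in JQ1-B, 0.267 (0.0271 to 1.4) with paclitaxel and 1.44 (0.509 to 4.37) with palbociclib. These are descriptions of cells within libraries, and median depth differed by at most 1.18-fold between the 2 groups. When cells were instead ranked by their share of S and G2/M cell cycle genes, NFKBIA itself differed between the highest and lowest group. Its ratios were 1.07 (0.931 to 1.24, JQ1 with palbociclib) to 1.47 (1.34 to 1.60, pre-treatment) over the 8 libraries. The part of the cell cycle in the NFKBIA split was not tested.

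**Figure D4:**
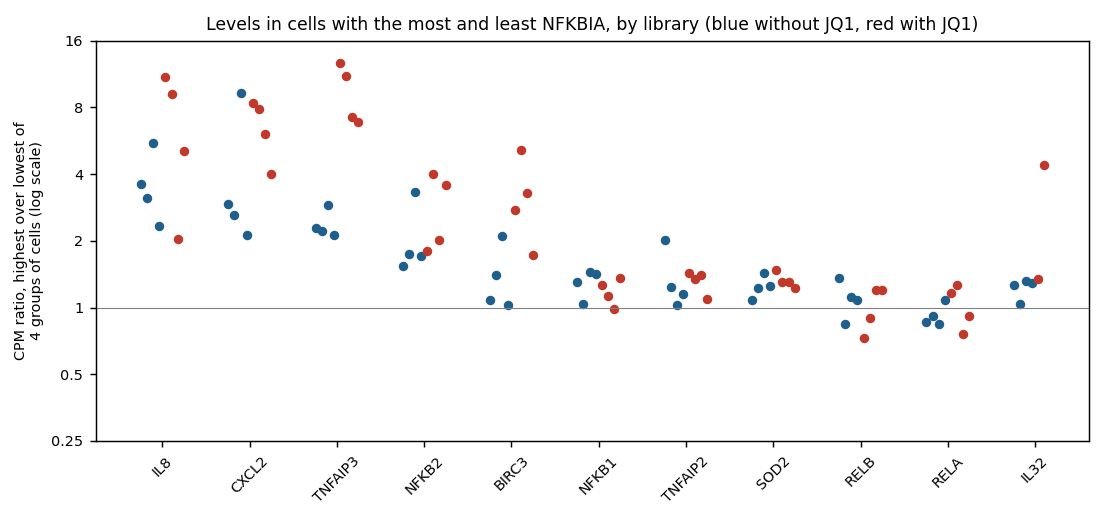
Ratio of CPM between the group of cells with the most NFKBIA and the group with the least, of 4 equal groups, within each library (log axis; blue without JQ1, red with JQ1; a point is drawn where both groups together held 20 UMIs or more). TNFAIP3 lies between 2.14 and 12.7, while RELA and RELB scatter around 1.

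Across log-normalized cells of the 4 libraries without JQ1, the highest mean Pearson correlations of IL32 were with POMP (0.229), which assembles proteasomes, CFL1, which severs actin (0.207), GSTP1 (0.202), PSME2 (0.198) and HMGB1 (0.198). NFKBIA ranked 529 of 2295 genes for IL32, at 0.064. NFKBIA itself had its highest correlations with IL8 (0.324) and CXCL2 (0.322), and HMGB1 was the fifth highest for it too (0.153). Those of ICAM1 were weak and rest on sparse counts, with PNRC1 (0.110) and SOD2 (0.104) the highest and JUNB, CXCL3 and CEBPD next. The cells share libraries and depth, so these values are given with no test.

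Across the 8 libraries, the tested genes averaging 20 CPM or more whose profile was nearest to that of IL32 were TNNT1, KRT75, SCG5, S100A2 and SPANXC. The measure was the root mean square difference of centered log2(CPM + 1), which was 1.29 for TNNT1 and 1.48 for KRT75 against a median of 2.56 over 4432 genes. None fell as far as IL32, as TNNT1 went from 29.4 to 67.5 CPM without JQ1 to 3.49 to 8.16 CPM with it. SPANXC has near-identical gene copies that share its reads, so its count is uncertain. The nearest to ICAM1 were GYPC (0.698), ISG15 (0.752), COL8A1 (0.759), TNNT1 (0.779) and SOD2 (0.786), against a median of 1.5 over 4433 genes. ISG15, an interferon-induced ubiquitin-like protein, was at 92.98 to 166 CPM without JQ1 and 31.9 to 41.7 CPM with it.

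Detected neighbors are given for IL32, ICAM1, BIRC3 and TNFAIP2, with gene spans from GENCODE. IL32 lies on chromosome 16 (3115298 to 3132193, GRCh37, plus strand). THOC6, 37542 bases away, was at 39.1 ± 11.1 CPM without JQ1 and 45.7 ± 11.3 CPM with it (SD, n = 4 each), and ZNF213, 47585 bases away, was at 4.08 ± 0.35 and 4.13 ± 0.30 CPM. ZNF205 was at 7.57 ± 2.06 and 4.95 ± 0.06 CPM, and MMP25, the nearest, was at 0.54 CPM or less throughout. ICAM1 lies on chromosome 19 (10381769 to 10397291, plus strand), where MRPL4 went from 191 ± 58.7 to 111 ± 8.03 CPM and DNMT1 from 97.1 ± 28.2 to 84.3 ± 4.24 CPM. ICAM4 and ICAM5, its neighbors of the same family, were at 0.60 CPM or less in every library, and ICAM4 had no UMI in the 4 JQ1 libraries, at levels too low to read a drop.

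BIRC3 lies on chromosome 11 (102188215 to 102210134, plus strand), 7808 bases before BIRC2, which encodes the related ligase cIAP1. BIRC2 was at 26.3 ± 3.68 CPM in libraries without JQ1 and 21.6 ± 1.23 CPM in those with JQ1, a ratio of 0.822, where BIRC3 had a ratio of 0.274. YAP1 and TMEM123 on either side had ratios of 0.940 and 0.967, and ANGPTL5 was at 1.13 CPM or less, with a ratio of 0.133 that rests on few UMIs. TNFAIP2 lies on chromosome 14 (103587813 to 103603776, plus strand) and overlaps the antisense LINC00677, which was at 0.282 CPM or less and had no UMI with JQ1. EXOC3L4 was likewise at 0.282 CPM or less, EIF5 went from 291 ± 116 to 176 ± 24.6 CPM, and MARK3 was at 40.1 ± 1.90 and 36.5 ± 0.69 CPM.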

How the data were processed

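Per the labels and the study's methods, the authors made the libraries with a droplet 3' kit, and the submitters' processing notes name Cell Ranger and Seurat, with build hg19. The deposited table holds UMI counts per gene and cell, with a second table that names each cell's library. Here UMIs were summed over every deposited cell of a library. Genes with at least 5 CPM in at least 2 libraries were tested with edgeR 4.0.16 (TMM, quasi-likelihood F-test, Benjamini-Hochberg adjustment, called under 0.05), with additive terms for JQ1, palbociclib and paclitaxel and 4 residual degrees of freedom. With 200 genes changed by 2 on the log2 scale in data simulated for JQ1 on 9288 genes, 99% were recovered, with 12 false calls. Smaller changes, such as those of NFKB1 and RELB, were not simulated. The SE given with each edgeR term was computed here as the absolute log2 value over the square root of the test's F statistic. Counting intervals are exact at 95%. The cell filter was at least 2000 genes and 1% to 15% mitochondrial UMIs.

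The members, lists and interaction tests were chosen with earlier results of these data known. Named were all members, the largest called changes and the smallest adjusted p per list, 5 genes of nearest profile and 5 of highest correlation for IL32 and ICAM1, and 2 detected neighbors on each side of IL32, ICAM1, TNFAIP2 and BIRC3. IRF1, IL18, IKBKB, the called interaction genes and the genes of the NFKBIA split were added after values were seen. The study states no test between the single-cell libraries. Alternatives were DESeq2 1.42.0, other size factors, filters, cell sets and single libraries left out. LTA, MAP3K14, MMP9 and G0S2 were not analysed here, and doublets were not called, beyond leaving out the deepest cells.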

Additional observations from a re-analysis of the deposited data

Results flagged for a closer look

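For 7 pathway genes outside the members, the interaction of JQ1 and paclitaxel was called by edgeR's quasi-likelihood test over 9288 genes, on 2 residual degrees of freedom. Without JQ1-B, 1 of the 7 calls was left, IL8, and it was the only call among all genes. IL8 was at 867 CPM with DMSO and 80.1 CPM with paclitaxel, but at 207 CPM in JQ1-A and 214 CPM with JQ1 and paclitaxel, an interaction of 3.81 ± 0.34 on the log2 scale (edgeR, adjusted p = 0.00597). IL6 went from 88.5 to 14.1 CPM without JQ1 and from 70.6 to 52.9 CPM with it (2.55 ± 0.32, edgeR, adjusted p = 0.0171). CXCL1 went from 14.0 to 2.37 CPM and from 11.1 to 11.3 CPM (3.25 ± 0.54, edgeR, adjusted p = 0.0412), and CCL20 from 52.6 to 11.6 CPM and from 30.0 to 31.7 CPM (1.93 ± 0.31, edgeR, adjusted p = 0.0369).

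NFKBIZ went from 36.2 to 6.99 CPM without JQ1 and from 23.5 to 20.4 CPM with it (2.47 ± 0.42, edgeR, adjusted p = 0.0474). JUNB went from 149 to 34.1 CPM and from 138 to 140 CPM (2.21 ± 0.34, edgeR, adjusted p = 0.0327). IRAK1, a kinase upstream of NF-kB, moved the opposite way, from 147 to 221 CPM without JQ1 and from 75.6 to 49.9 CPM with it (-1.16 ± 0.20, edgeR, adjusted p = 0.0490). The paclitaxel library is the only one with paclitaxel and no JQ1, so what belongs to that library and what belongs to the drug cannot be told apart.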

How the results depend on the processing

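The labels' replicate numbers pair no libraries across treatments, so 3 matched treatments with and without JQ1 stood in as pairs in an alternative. The pathway genes called for JQ1, 22 in all, were 21 to 29 under DESeq2, DESeq2 size factors, no filter on low counts, the study's cell filter, thinned libraries, the paclitaxel experiment alone, and without the deepest 5% of cells. They were 11 with experiment as a term and 3 with 3 matched pairs, and 11 to 31 with 1 library left out. Among all tested genes, 3488 of 9288 were called for JQ1 in the reported fit. With experiment as a term 2043 of 9288 were called, and with 3 matched pairs 361 of 9172. Between 1760 of 9246 and 4190 of 9163 were called for JQ1 with 1 library left out. Palbociclib had 0 calls, 1 with DESeq2 and 0 to 6 with 1 library left out, and paclitaxel had 0 and 0 to 1. The alternatives for both interactions were added after the data were seen. JQ1 by paclitaxel had 7 calls in the pathway, 26 without the filter, 13 with DESeq2, 13 without the deepest 5% of cells and 1 to 32 with 1 library left out. JQ1 by palbociclib had 0 calls, 19 without the filter, 3 with DESeq2 and 0 to 20 with 1 library left out. Among all tested genes JQ1 by paclitaxel had 36 calls, 724 without the filter, 75 with DESeq2 and 80 without the deepest 5% of cells. JQ1 by palbociclib had 1 call among them, 689 without the filter and 34 with DESeq2. The calls among all tested genes also moved with 1 library left out, so a changed count is not a change of the pathway alone. The cause of these changes was not tested, and a library left out also removes a degree of freedom.

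Terms that turned sign were on the log2 scale as follows. Within the paclitaxel experiment alone, the JQ1 terms of NFKB2, TNFAIP3 and TNFAIP2 were 0.43, 0.22 and 0.53. With experiment as a term, the palbociclib terms of NFKBIA and BIRC3 were 0.0061 and 0.46. Without the deepest 5% of cells, RELA was at -0.021 for paclitaxel and -0.030 for JQ1 by palbociclib, and IL32 at 0.068 for JQ1 by paclitaxel. With 1 library left out, the JQ1 term of TNFAIP2 ran from -0.51 to 0.37. The palbociclib terms ran from -0.18 to 1.62 for ICAM1, -0.013 to 0.53 for NFKB1, -0.38 to 0.89 for NFKB2, -1.07 to 1.46 for TNFAIP3, -0.30 to 1.35 for TNFAIP2 and -0.79 to 0.29 for BIRC3. The paclitaxel terms ran from -1.34 to 1.31 for ICAM1, -0.49 to 0.33 for NFKB1, -1.63 to 0.42 for NFKB2, -0.094 to 0.14 for RELA, -0.91 to 0.12 for RELB, -1.29 to 0.35 for NFKBIA, -2.78 to 0.61 for TNFAIP3, -1.61 to 0.16 for TNFAIP2 and -1.81 to 0.82 for BIRC3. For JQ1 by palbociclib, RELA ran from -0.038 to 0.051 and BIRC3 from -0.85 to 0.13. None of these terms was called in the reported fit, and shares of cells with a UMI moved with depth, which limits sparse members such as ICAM1 and NFKB2.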
